A study of Homo sapiens with 9 samples.

Results

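The RNA interference machinery was followed here through 10 genes chosen by their role in the pathway: DROSHA and DGCR8 of the Microprocessor, DICER1 and its partner TARBP2, the Argonautes AGO1, AGO2, AGO3 and AGO4, and the scaffold proteins TNRC6A and TNRC6B. The genes were picked with earlier results of these data known. All 10 had a row among the 60605 genes of the deposited table, and all 10 were among the 21395 genes that passed the filter on low values. The data were poly(A)-selected RNA-seq of TE13, an established esophageal squamous cell carcinoma (ESCC) line, transfected with a control siRNA or with either of the PARylator siRNAs, siRNA.1 and siRNA.2. PARylator is the long noncoding RNA of the LINC00885 gene. Each group held 3 libraries of the same parental line, 9 in all, and the control libraries had also received an siRNA, so no library shows cells without transfection. The study calls the libraries of a group experimental repeats without saying whether they were separate cultures, and the p-values measure the spread between these libraries, which may be technical.

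Part of the machinery under study is also used by the transfected siRNAs. In the nucleus, DROSHA cuts the hairpins out of primary microRNA (miRNA) transcripts while bound to DGCR8, and the hairpins are exported to the cytoplasm, where DICER1 trims them into short duplexes with the help of TARBP2. An Argonaute protein keeps 1 strand of the duplex and pairs it with mRNAs, and TNRC6 proteins, also called GW182 proteins, dock on the Argonaute and recruit the enzymes that shorten the poly(A) tail. AGO2 is the Argonaute best known for cutting a fully paired target, which is how an siRNA works. The measurements were of mRNA, and neither the proteins nor the mature miRNAs were measured.

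Total counts per library ran from 15337917 to 22559998. The members had between 317 counts (TARBP2) and 6159 counts (AGO2) in a library. Counts of the targeted LINC00885 were low: 6, 7 and 12 in the control libraries, 4, 5 and 2 with siRNA.1, and 2, 0 and 4 with siRNA.2. In edgeR neither knockdown group differed from control past the threshold (log2 fold change -1.21, adjusted p = 0.376, for siRNA.1 and -2.33, adjusted p = 0.0659, for siRNA.2), so the knockdown was not resolved at this depth. The study itself measured the knockdown by qPCR in TE13 cells and reports that an siRNA-resistant plasmid restored PARylator. Mitochondrial transcripts took 7.46 to 7.66% of the counts in the control libraries, 4.99 to 5.06% in the siRNA.1 libraries and 5.54 to 5.56% in those of siRNA.2. Of 8 squamous epithelial markers, 2 were higher and 5 lower with each siRNA (edgeR), where 30.3% and 30.9% of all genes passed. Their summed level was 651 to 665 FPKM (fragments scaled to transcript length and library size) in control libraries. It was 560 to 588 in siRNA.1 libraries and 558 to 575 in those of siRNA.2. The sum hid larger changes of single markers, named after their values were seen. The log2 fold changes with siRNA.1 and siRNA.2 were -1.86 and -1.36 for KRT5 and -1.85 and -0.87 for SOX2. EPCAM (0.44 and 0.45) and KRT6A (0.34 and 0.58) rose, and KRT17, TP63 and CDH1 fell less than KRT5 and SOX2. Of 9 blood, fibroblast and endothelial markers, 4 passed the filter, LYZ and PTPRC were higher and COL1A1 and VWF lower with each siRNA, MS4A1 was at 0 in all 9 libraries, and the summed level was 2.70 to 3.29, 4.47 to 4.80 and 4.37 to 5.24 FPKM. The part of these shifts in the results below was not tested.

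The 10 mRNAs covered a wide span of levels. In the control libraries DROSHA was the most abundant at 23.0 ± 0.0656 FPKM (SD, n = 3), above 90.7% of the genes tested. AGO2 at 16.4 ± 0.820 FPKM and DICER1 at 15.2 ± 0.566 FPKM followed, then TNRC6A at 10.9 ± 0.772 FPKM and AGO1 at 6.63 ± 0.370 FPKM. DGCR8 at 5.47 ± 0.365 FPKM and TARBP2 at 5.10 ± 0.205 FPKM had overlapping libraries. AGO4 at 3.75 ± 0.356 FPKM, TNRC6B at 2.20 ± 0.134 FPKM and AGO3 at 1.33 ± 0.0872 FPKM closed the order, with AGO3 still above 45.6% of the genes tested. Both PARylator siRNAs left this order as it was except that DGCR8 and TARBP2 traded places, and in all 3 groups those were the only neighbours whose libraries overlapped.

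**Figure D1:**
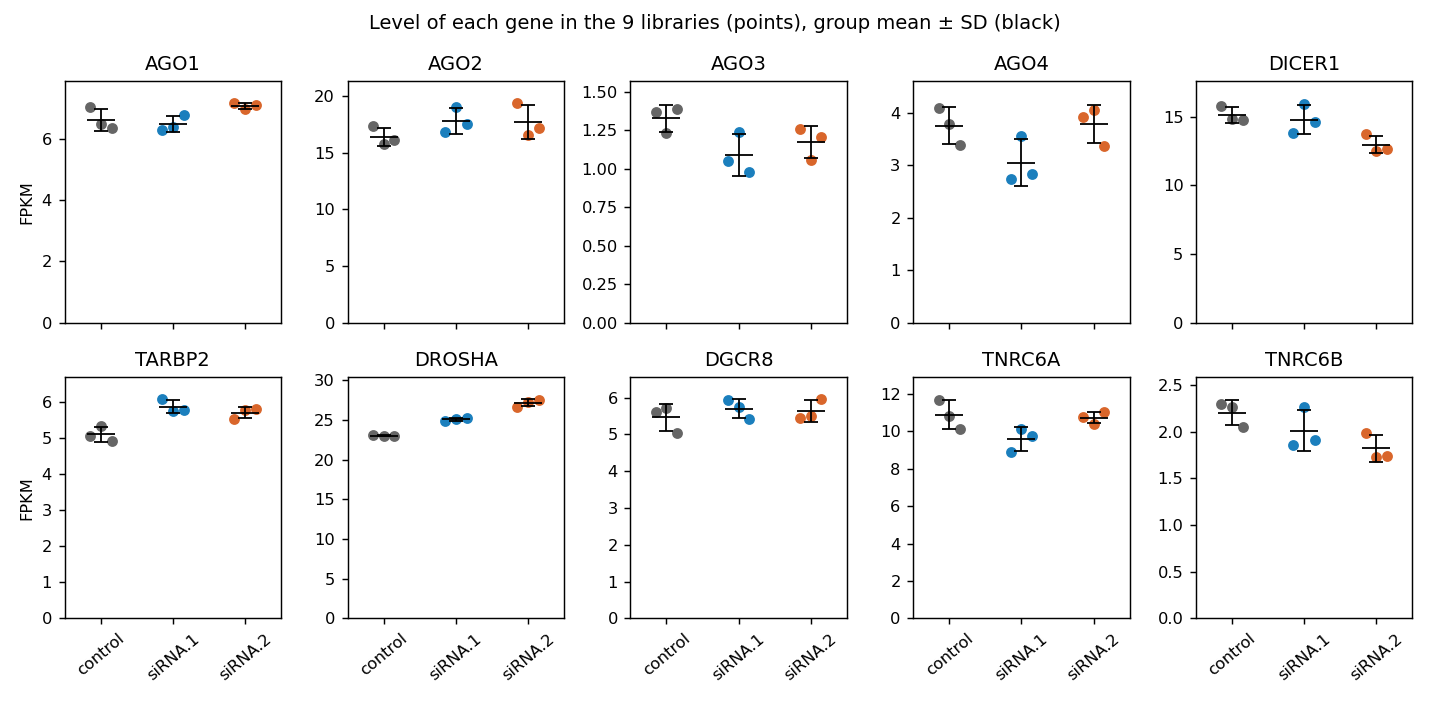
Level in FPKM (vertical axis, from 0, a scale of its own for each gene) of the 10 genes in the 9 libraries, grouped by siRNA, where points are libraries and black marks the group mean ± SD (n = 3). DROSHA had means of 23.0, 25.1 and 27.2 FPKM, while the means of DICER1 and TNRC6B were lowest with siRNA.2 and those of AGO3 and AGO4 with siRNA.1.

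With siRNA.1, 3 of the 10 members passed the test at an adjusted p under 0.05 (edgeR's quasi-likelihood test with Benjamini-Hochberg adjustment over all genes), all of them lower: AGO3, AGO4 and TNRC6A. Across all genes tested 30.3% passed in that comparison and 15.2% did so as lower, so the count of members was close to the background. With siRNA.2, 3 members passed as well, DICER1 and TNRC6B lower and DROSHA higher, against 30.9% of all genes (15.8% higher, 15.1% lower). None of the 10 passed in the same direction with both siRNAs in edgeR, against 11.1% of all genes higher and 10.2% lower with both; at an unadjusted p under 0.05, 6 members passed with siRNA.1 and 5 with siRNA.2. Other tools and sets of libraries gave 0 or 1 member in common: DROSHA with DESeq2 and limma, AGO2 without control replicate 1 and TNRC6B without siRNA.1 replicate 2. Both comparisons used the same 3 control libraries.

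The members moved little. With siRNA.1 their fold changes lay between 0.794 (AGO4) and 1.13 (TARBP2), and with siRNA.2 between 0.821 (TNRC6B) and 1.17 (DROSHA). The 95% intervals of all 10 stayed within 0.698 and 1.30 with siRNA.1 and within 0.739 and 1.27 with siRNA.2. The median size of the log2 change, without sign, was 0.13 among the members with siRNA.1 and 0.12 with siRNA.2, where it was 0.30 and 0.31 over all genes tested. Among the 11993 genes whose mean level was at least that of the lowest member it was 0.20 with each siRNA, and 45.7% and 46.9% of those genes passed. In RNA from a whole culture, a lower level per cell and a shift in the make-up of the cells cannot be told apart.

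**Figure D2:**
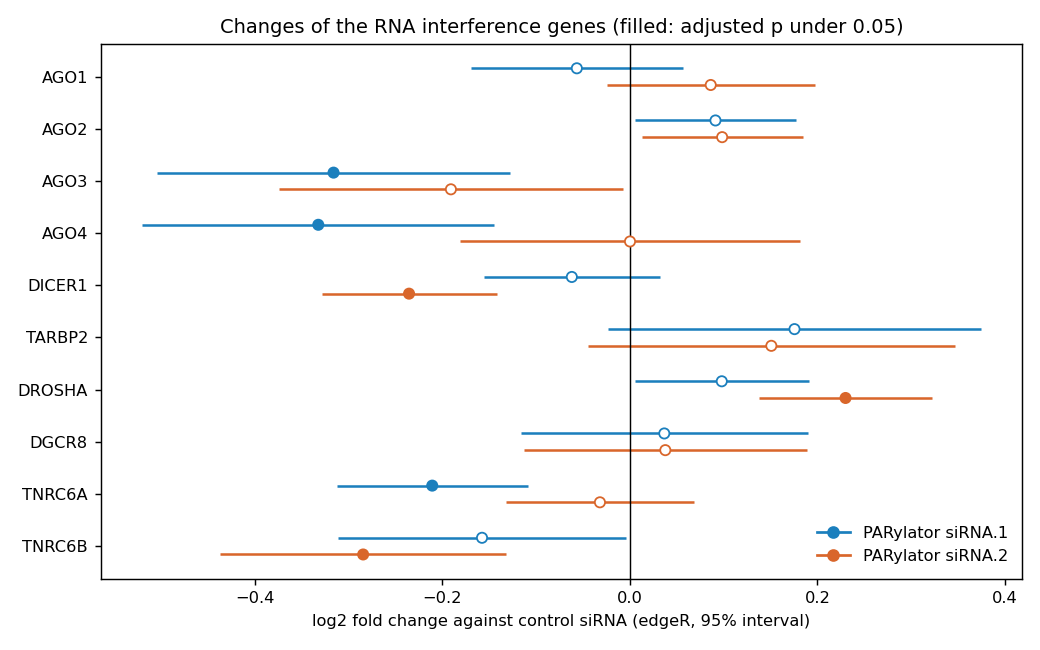
Log2 fold change of the 10 genes against control siRNA (horizontal axis, edgeR) with its 95% interval, for siRNA.1 in blue and siRNA.2 in orange; filled points passed at an adjusted p under 0.05. Filled points lie between -0.33 and 0.23, and no gene has a filled point for both siRNAs.

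The Microprocessor gene DROSHA (ENSG00000113360, chr5:31400494-31532196, minus strand, GRCh38), which encodes the nuclear RNase III enzyme, rose with siRNA.2. It stood at 23.07, 23.02 and 22.94 FPKM in the control libraries, at 24.9, 25.18 and 25.22 FPKM with siRNA.1 and at 26.68, 27.32 and 27.58 FPKM with siRNA.2. The 3 groups did not overlap, and each siRNA.2 library was above each siRNA.1 library. With siRNA.2 the log2 fold change was 0.23 (SE 0.05, adjusted p = 7.82e-06, edgeR), and it stayed between 0.21 and 0.25 with an adjusted p of at most 0.000583 in all 16 alternatives run. With siRNA.1 the log2 fold change was 0.10 (SE 0.05), which missed the threshold in edgeR (adjusted p = 0.108) and passed it in DESeq2 (adjusted p = 0.0452) and in limma on log2(FPKM + 0.1) (adjusted p = 0.00885). The difference between the siRNAs, 0.13 on the log2 scale (adjusted p = 0.0411, edgeR), was lost without any one of siRNA.1 replicates 1, 2 and 3 or siRNA.2 replicates 2 and 3, where it was 0.12 to 0.14 with an adjusted p of 0.0830 to 0.204. It was also lost with RLE size factors in place of TMM (adjusted p = 0.0626), without the filter on low values (adjusted p = 0.0613) and with the replicate number as a block (adjusted p = 0.0731).

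DGCR8 (ENSG00000128191, chr22:20080232-20111877, plus strand), the RNA-binding partner of DROSHA, showed no such movement. Its levels were 5.62, 5.73 and 5.05 FPKM in control libraries, 5.94, 5.74 and 5.43 FPKM with siRNA.1 and 5.45, 5.49 and 5.97 FPKM with siRNA.2, and the groups overlapped throughout. The log2 fold change was 0.04 with each siRNA (SE 0.08, adjusted p = 0.794 and 0.781, edgeR), with 95% intervals of -0.12 to 0.19 and -0.11 to 0.19. The ratio of DROSHA to DGCR8 in FPKM was accordingly 4.22 ± 0.281 (SD, n = 3) in control libraries, 4.41 ± 0.227 with siRNA.1 and 4.83 ± 0.187 with siRNA.2. TRMT2A, at a mean of 10.1 FPKM on the opposite strand, overlaps the end of DGCR8, and since the strand setting of the counting is not stated, reads from the shared stretch cannot be told apart. The DGCR8 transcript itself carries miRNA hairpins, which the Microprocessor can cut out of its own mRNA. They are shown because they tie this member to the substrate of the enzyme it serves. RefSeq (GRCh38.p14) places miR-3618 at chr22:20085797-20085818 and the arms of miR-1306 at chr22:20086072-20086093 and chr22:20086112-20086129. In the GENCODE 44 annotation of DGCR8, miR-3618 falls in an exon and the arms of miR-1306 in a coding exon. Capitals mark the seed, bases 2 to 8, which pairs first with a target, and the runs are read 5′ to 3′.
hsa-miR-3618: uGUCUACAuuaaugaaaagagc
hsa-miR-1306-5p: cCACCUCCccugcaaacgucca
hsa-miR-1306-3p: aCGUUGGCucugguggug
The hairpin rows of both were listed at 0 in all 9 libraries.

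DICER1 (ENSG00000100697, chr14:95086228-95158010, minus strand), the cytoplasmic RNase III enzyme, fell with siRNA.2. It stood at 15.81, 14.85 and 14.81 FPKM in the control libraries, at 13.81, 15.97 and 14.65 FPKM with siRNA.1 and at 13.72, 12.54 and 12.68 FPKM with siRNA.2. Each siRNA.2 library lay below all 6 other libraries, while siRNA.1 and control overlapped. The log2 fold change was -0.24 with siRNA.2 (SE 0.05, adjusted p = 6.51e-06, edgeR), lay between -0.26 and -0.20 in the 16 alternatives and passed in each. With siRNA.1 it was -0.06 (SE 0.05, adjusted p = 0.367, edgeR; 95% interval -0.16 to 0.03). The siRNAs differed by -0.17 (SE 0.05, adjusted p = 0.00403, edgeR), a difference that was -0.12 with an adjusted p of 0.113 without siRNA.1 replicate 2, the library with the highest DICER1 level. DROSHA and DICER1, the RNase III enzymes of the pathway, thus moved in opposite directions with siRNA.2.

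An intron of DICER1 holds the hairpin of miR-3173, whose arms RefSeq places at chr14:95137961-95137982 and chr14:95137923-95137944 on the minus strand. They are shown, with the seed in capitals, as the miRNA that shares a primary transcript with the enzyme that would trim it.
hsa-miR-3173-5p: uGCCCUGCcuguuuucuccuuu
hsa-miR-3173-3p: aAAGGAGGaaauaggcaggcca
This hairpin was also listed at 0 in every library, and DICER1-AS1 on the opposite strand had a mean of 0.346 FPKM, far below DICER1.

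TARBP2 (ENSG00000139546, chr12:53500921-53506431, plus strand) encodes the RNA-binding partner of DICER1. Its levels were 5.05, 5.33 and 4.93 FPKM in control libraries, 6.08, 5.76 and 5.77 FPKM with siRNA.1 and 5.54, 5.78 and 5.8 FPKM with siRNA.2. All 6 PARylator siRNA libraries were above all 3 control libraries. The log2 fold changes were 0.18 with siRNA.1 (SE 0.10, adjusted p = 0.197, edgeR) and 0.15 with siRNA.2 (SE 0.10, adjusted p = 0.277), and neither passed. In limma on log2(FPKM + 0.1) the siRNA.1 change passed (0.20, adjusted p = 0.0256). With the fewest counts of the 10, TARBP2 also had the widest intervals, -0.02 to 0.37 and -0.04 to 0.35. The ratio of DICER1 to TARBP2 in FPKM was 2.97 ± 0.174 (SD, n = 3) in control libraries, 2.53 ± 0.251 with siRNA.1 and 2.28 ± 0.173 with siRNA.2.

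Among the Argonautes the 2 least abundant mRNAs fell with siRNA.1. AGO4 (ENSG00000134698, chr1:35808016-35857890, plus strand), an Argonaute without the cutting activity of AGO2, stood at 4.09, 3.79 and 3.38 FPKM in control libraries, at 2.74, 3.56 and 2.83 FPKM with siRNA.1 and at 3.92, 4.05 and 3.37 FPKM with siRNA.2. Replicate 2 of siRNA.1 lay within the control range and the other two libraries below it, while siRNA.2 and control were interleaved. The log2 fold change was -0.33 with siRNA.1 (SE 0.10, adjusted p = 0.00264, edgeR; 95% interval -0.52 to -0.14), the largest fall among the members, but it did not pass in limma (adjusted p = 0.112 and 0.120 with pseudocounts of 0.1 and 1). With siRNA.2 it was 0.00016 (SE 0.09, adjusted p = 1, edgeR; 95% interval -0.18 to 0.18). The difference between the siRNAs was 0.33 (SE 0.09, adjusted p = 0.00563, edgeR). It no longer passed without siRNA.1 replicate 1 (0.26, adjusted p = 0.0836), siRNA.1 replicate 3 (0.29, adjusted p = 0.0674) or siRNA.2 replicate 2 (0.27, adjusted p = 0.0874).

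AGO3 (ENSG00000126070, chr1:35930718-36072500, plus strand) was the lowest of the Argonautes. Its levels were 1.37, 1.23 and 1.39 FPKM in control libraries, 1.05, 1.24 and 0.98 FPKM with siRNA.1 and 1.26, 1.06 and 1.21 FPKM with siRNA.2. The groups touched in both comparisons, since control replicate 2 lay below the highest library of each siRNA. The log2 fold change was -0.32 with siRNA.1 (SE 0.10, adjusted p = 0.00478, edgeR) and -0.19 with siRNA.2 (SE 0.09, adjusted p = 0.115). The siRNA.1 call was lost without siRNA.1 replicate 3 (-0.25, adjusted p = 0.0761) and in limma (adjusted p = 0.200 and 0.198 with pseudocounts of 0.1 and 1). The siRNAs did not differ from each other by more than the test resolved, at 0.13 (adjusted p = 0.496, edgeR; 95% interval -0.06 to 0.31).

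AGO1 (ENSG00000092847, chr1:35869808-35930532, plus strand) lies between AGO4 and AGO3 on the same strand of chromosome 1 but was not called with them. It stood at 7.05, 6.49 and 6.35 FPKM in control libraries, at 6.31, 6.39 and 6.78 FPKM with siRNA.1 and at 7.18, 6.98 and 7.12 FPKM with siRNA.2. Control overlapped both siRNA groups, 2 of the 3 siRNA.2 libraries were above every control library, and each siRNA.2 library was above each siRNA.1 library. The log2 fold changes were -0.06 with siRNA.1 (SE 0.06, adjusted p = 0.519, edgeR) and 0.09 with siRNA.2 (SE 0.06, adjusted p = 0.273), and 0.14 between the siRNAs (SE 0.06, adjusted p = 0.0823). None of the 3 passed, and none did so under any of the 16 alternatives.

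AGO2 (ENSG00000123908, chr8:140520156-140635633, minus strand), the Argonaute that cuts fully paired targets, was the most abundant of the family. Its levels were 17.36, 15.82 and 16.1 FPKM in control libraries, 16.84, 19.1 and 17.57 FPKM with siRNA.1 and 19.39, 16.58 and 17.23 FPKM with siRNA.2. Control replicate 1 sat inside both siRNA groups, and the other two control libraries sat below all 6. The log2 fold changes were 0.09 with siRNA.1 (SE 0.04, adjusted p = 0.107, edgeR; 95% interval 0.01 to 0.18) and 0.10 with siRNA.2 (SE 0.04, adjusted p = 0.0737; 95% interval 0.01 to 0.18). Both passed without control replicate 1, at 0.13 (adjusted p = 0.0238) and 0.14 (adjusted p = 0.0151). The siRNA.1 change also passed without siRNA.1 replicate 1 (0.13, adjusted p = 0.0280) and the siRNA.2 change without siRNA.2 replicate 2 (0.14, adjusted p = 0.0237). Between the siRNAs AGO2 differed by 0.01 (adjusted p = 0.965, edgeR).

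Taken as a family, the Argonaute mRNAs summed to 28.1 ± 1.50 FPKM (SD, n = 3) in control libraries, 28.5 ± 1.70 with siRNA.1 and 29.8 ± 1.71 with siRNA.2, within the spread between libraries. AGO2 made up 58.1, 57.9 and 59.1% of the summed Argonaute FPKM in the control libraries, 62.5, 63.1 and 62.4% with siRNA.1 and 61.1, 57.8 and 59.6% with siRNA.2. All 3 siRNA.1 libraries were above the other 6 libraries, while siRNA.2 and control overlapped. The share was 4.27 percentage points higher with siRNA.1 than with control siRNA (exact permutation test, two-sided, p = 0.1, Benjamini-Hochberg adjusted over the 3 comparisons 0.15), and groups of 3 libraries cannot give a p below 0.1. With siRNA.2 it was 1.10 points higher (exact permutation p = 0.4), and the siRNAs differed by -3.17 points (exact permutation p = 0.1, adjusted 0.15). The share of AGO4 was 13.3 ± 0.792% in control libraries, 10.7 ± 0.950% with siRNA.1 and 12.7 ± 1.28% with siRNA.2, that of AGO3 4.73 ± 0.328, 3.82 ± 0.313 and 3.95 ± 0.243%, and that of AGO1 23.6 ± 0.212, 22.9 ± 1.57 and 23.9 ± 1.08%.

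**Figure D3:**
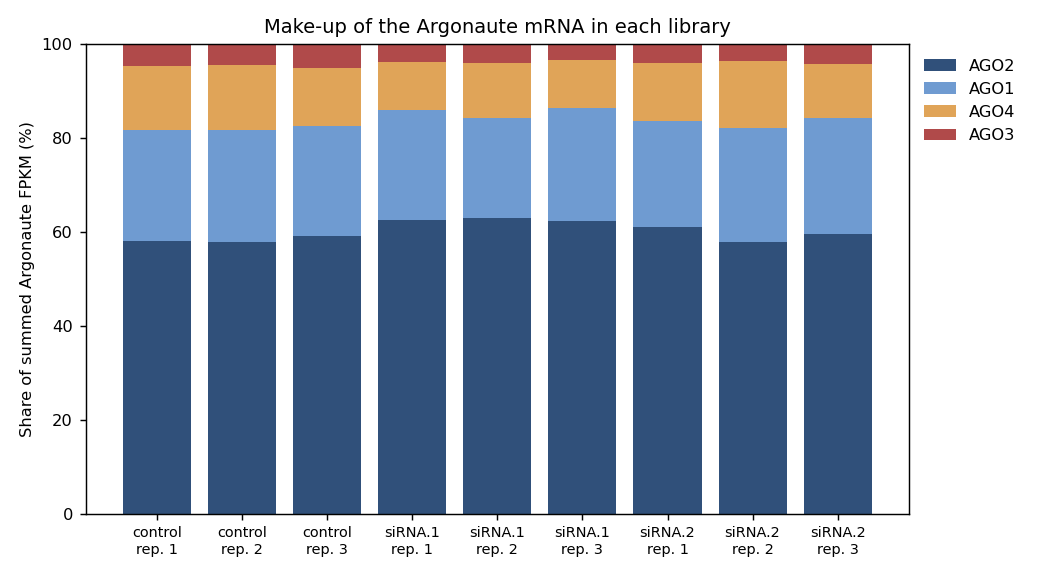
Share of each Argonaute in the summed Argonaute FPKM (vertical axis, percent) in each of the 9 libraries. The AGO2 share is 57.9 to 59.1% in the control libraries, 62.4 to 63.1% in those of siRNA.1 and 57.8 to 61.1% in those of siRNA.2.

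The TNRC6 scaffolds, which link the Argonautes to deadenylation, each fell with 1 siRNA. TNRC6A (ENSG00000090905, chr16:24610209-24827632, plus strand) stood at 11.68, 10.82 and 10.14 FPKM in control libraries, at 8.89, 10.11 and 9.74 FPKM with siRNA.1 and at 10.73, 10.4 and 11.01 FPKM with siRNA.2. The siRNA.1 libraries were below all others, by a narrow margin between siRNA.1 replicate 2 and control replicate 3, and siRNA.2 fell inside the control range. The log2 fold change was -0.21 with siRNA.1 (SE 0.05, adjusted p = 0.000321, edgeR), which limma did not call (adjusted p = 0.0759 and 0.0767), and -0.03 with siRNA.2 (SE 0.05, adjusted p = 0.711, edgeR). The siRNAs differed by 0.18 (SE 0.05, adjusted p = 0.00688, edgeR), and that difference was lost without siRNA.1 replicate 1 (0.13, adjusted p = 0.131) or siRNA.2 replicate 3 (0.15, adjusted p = 0.0943).

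TNRC6B (ENSG00000100354, chr22:40044817-40335808, plus strand) passed with siRNA.2 only, and its siRNA.1 estimate had the same sign. Its levels were 2.3, 2.26 and 2.05 FPKM in control libraries, 1.86, 2.26 and 1.91 FPKM with siRNA.1 and 1.99, 1.73 and 1.74 FPKM with siRNA.2. Each siRNA.2 library was below each control library, while siRNA.1 replicate 2 was level with a control library. The log2 fold change was -0.28 with siRNA.2 (SE 0.08, adjusted p = 0.00134, edgeR), the largest fall among the members with that siRNA, and did not pass in limma (adjusted p = 0.122 and 0.127). With siRNA.1 it was -0.16 (SE 0.08, adjusted p = 0.121, edgeR) and passed without siRNA.1 replicate 2 (-0.24, adjusted p = 0.0233). The difference between the siRNAs was -0.13 (adjusted p = 0.362, edgeR), so TNRC6B was not shown to respond differently to them. The ratio of TNRC6A to TNRC6B in FPKM was 4.94 ± 0.146 (SD, n = 3) in control libraries, 4.78 ± 0.313 with siRNA.1 and 5.91 ± 0.476 with siRNA.2. The paralog TNRC6C, which is not a member and was named after its values were seen, had a mean of 0.919 FPKM and log2 fold changes of -0.17 (adjusted p = 0.396, edgeR) and -0.43 (adjusted p = 0.0102).

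When the PARylator siRNAs were compared directly, 4 of the 10 members passed (edgeR), with AGO4, TNRC6A and DROSHA higher and DICER1 lower with siRNA.2, against 12.2% of all genes (6.10% higher, 6.06% lower) and 19.9% of the genes at or above the level of the lowest member; 5 members passed at an unadjusted p under 0.05. Each of the 4 calls was lost without at least 1 library, as given for each gene above, and limma called DROSHA alone. Fold changes between the siRNAs lay between 0.887 (DICER1) and 1.26 (AGO4), and the median size of the log2 change was 0.13 among the members, 0.19 over all genes and 0.12 among genes at or above the level of the lowest member. Groups of libraries that did not overlap in FPKM were found for 3 members with siRNA.1 (TNRC6A, DROSHA and TARBP2), for 4 with siRNA.2 (TNRC6B, DICER1, DROSHA and TARBP2) and for 4 between the siRNAs (TNRC6A, AGO1, DICER1 and DROSHA), where 38.3%, 40.1% and 24.8% of all genes did not overlap. TARBP2 and DROSHA were above control without overlap in both siRNA groups.

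The members were then set beside 64 other genes of the pathway, of which 62 were tested. Of these, 29 passed with siRNA.1 (12 higher, 17 lower), 34 with siRNA.2 (19 higher, 15 lower) and 14 between the siRNAs (edgeR), and 19 passed in the same direction with both siRNAs, 10 higher and 9 lower. Among the genes at or above the level of the lowest member 45.7%, 46.9% and 19.9% passed in these comparisons, and 11.1% of all genes were higher and 10.2% lower with both siRNAs, so the counts with each siRNA were not far from the background. Next to DROSHA and DGCR8, among 9 nuclear processing and export partners, 2 rose and 1 fell with both siRNAs. XPO5, the exportin that carries the hairpins out of the nucleus, had 13.08, 12.22 and 12.11 FPKM in control libraries, 14.94, 16.7 and 15.4 FPKM with siRNA.1 and 15.81, 15.59 and 15.35 FPKM with siRNA.2. It rose by 0.30 (adjusted p = 1.65e-07, edgeR) and 0.31 (adjusted p = 4.99e-08) on the log2 scale, and all 6 libraries were above control. ERH, a small Microprocessor cofactor, rose by 0.12 and 0.20 on the log2 scale (adjusted p = 0.0175 and 3.88e-05), the first of which was lost without control replicate 1 (adjusted p = 0.0680) or siRNA.1 replicate 3 (adjusted p = 0.152). DDX17, an RNA helicase found with the Microprocessor, had log2 fold changes of -0.31 and -0.35 (adjusted p = 2.39e-13 and 2.56e-17). The helicase DDX5 of the same list, named after its values were seen, went the other way. Its log2 fold changes were 0.06 with siRNA.1 (adjusted p = 0.182, edgeR) and 0.15 with siRNA.2 (adjusted p = 0.000194), and both siRNA groups lay above control without overlap. With siRNA.2 DROSHA and XPO5 were higher and DICER1, which acts after export, was lower. Other genes of these steps went otherwise with siRNA.2: DDX17 fell, DGCR8 showed no such movement, and TARBP2 lay above control without passing. XPO5 rose alike with siRNA.1, where the DICER1 change was -0.06 and did not pass.

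Among 11 Dicer and Argonaute loading partners, 3 were higher and 5 lower with siRNA.1, 4 were higher and 1 lower with siRNA.2, and 3 rose and 1 fell with both. The genes that rose with both were the co-chaperones FKBP4 (log2 fold changes 0.27 and 0.47), AHSA1 (0.25 and 0.29) and DNAJA2 (0.19 and 0.15), with adjusted p of at most 0.0148 in edgeR, though the siRNA.2 change of DNAJA2 was lost without control replicate 1 (adjusted p = 0.115) or siRNA.2 replicate 2 (adjusted p = 0.151). Other chaperone genes of the same list went the other way with siRNA.1: PTGES3 fell by 0.35 (adjusted p = 3.27e-18, edgeR), HSP90AA1 fell by 0.15 (adjusted p = 1.33e-06), HSPA8 fell by 0.13 (adjusted p = 0.000143) and STIP1 fell by 0.11 (adjusted p = 0.0345) on the log2 scale, named after their values were seen. TSN, a subunit of the C3PO nuclease, had -0.33 and -0.21. Among 10 Argonaute cofactors, 4 were higher and 0 lower with siRNA.1, and 2 were higher and 2 lower with siRNA.2. With both siRNAs 2 rose and none fell, DDX20 (0.38 and 0.45) and FXR2 (0.30 and 0.33). FXR1 and AJUBA of the same list, named after their values were seen, lay below control without overlap with siRNA.2. The FXR1 mean was 13.75 FPKM in control libraries and 11.64 with siRNA.2, and that of AJUBA 35.4 and 27.7 FPKM.

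Downstream of TNRC6A and TNRC6B, 3 of 24 deadenylation and decay effectors rose and 5 fell with both siRNAs. Over all genes, 11.1% were higher and 10.2% lower with both. DDX6, the helicase that the CCR4-NOT complex recruits to repressed mRNAs, stood at 28.72, 25.91 and 27.17 FPKM in control libraries, at 18.02, 19.63 and 19.58 FPKM with siRNA.1 and at 21.33, 21.02 and 21.89 FPKM with siRNA.2. DDX6 fell by 0.54 and 0.36 on the log2 scale (adjusted p = 2.47e-32 and 7.92e-15, edgeR). Its fall was larger than that of any member, though DDX6 was named by a rule that picks large changes. The 3 groups did not overlap. The CCR4-NOT deadenylases CNOT8 (-0.41 and -0.42) and CNOT6 (-0.26 and -0.36) fell as well, whereas CNOT10 (0.29 and 0.34) and the scaffold CNOT1 (0.12 and 0.15) rose. The deadenylases CNOT6L and CNOT7 of the same list, named after their values were seen, did not fall with both siRNAs. CNOT6L lay above control without overlap with each siRNA, at 0.17 (adjusted p = 0.111, edgeR) and 0.29 (adjusted p = 0.00124). CNOT7 had 0.03 with siRNA.1 (adjusted p = 0.738, edgeR) and -0.17 with siRNA.2 (adjusted p = 0.00235). The CNOT1 change with siRNA.1 was lost without control replicates 2 or 3 or siRNA.1 replicates 2 or 3 (0.07 to 0.12, adjusted p = 0.0558 to 0.232). DCP1B, a decapping cofactor, rose (0.50 and 0.44) but was lost with siRNA.1 without control replicates 1 or 3 or siRNA.1 replicates 1 or 2 (0.32 to 0.47, adjusted p = 0.0543 to 0.255) and with siRNA.2 without control replicates 1 or 3 or siRNA.2 replicates 1 or 3 (0.35 to 0.43, adjusted p = 0.0954 to 0.192). Its paralog DCP1A and the decapping enzyme DCP2 were named after their values were seen. DCP1A lay below control without overlap with siRNA.1 and above it with siRNA.2, with means of 5.56, 4.76 and 6.51 FPKM. DCP2 overlapped control with siRNA.1 and lay below it without overlap with siRNA.2, with means of 2.98, 2.93 and 2.35 FPKM.

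Of 10 genes of miRNA tailing and turnover, 8 were tested, while LIN28A and LIN28B were below the filter. With both siRNAs 2 fell, where 10.2% of all genes were lower with both. With siRNA.2, 2 genes of the list were higher. TUT7, a terminal uridylyltransferase that adds uridines to miRNA precursors, stood at 14.35, 12.78 and 13.74 FPKM in control libraries, at 8.33, 8.93 and 8.51 FPKM with siRNA.1 and at 9.2, 8.96 and 9.55 FPKM with siRNA.2. TUT7 fell by 0.69 and 0.57 on the log2 scale (adjusted p = 2.58e-26 and 8.91e-19, edgeR). All 6 libraries lay below all 3 control libraries. The uridylyltransferase TUT4 of the same list, named after its values were seen, overlapped control with each siRNA. Its means were 3.99 FPKM in control libraries, 4.03 with siRNA.1 and 4.14 with siRNA.2. ZSWIM8, the ubiquitin ligase adaptor of target-directed miRNA degradation, which acts on the Argonaute itself, had -0.29 and -0.39 (adjusted p = 8.07e-05 and 2.75e-08).

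**Figure D4:**
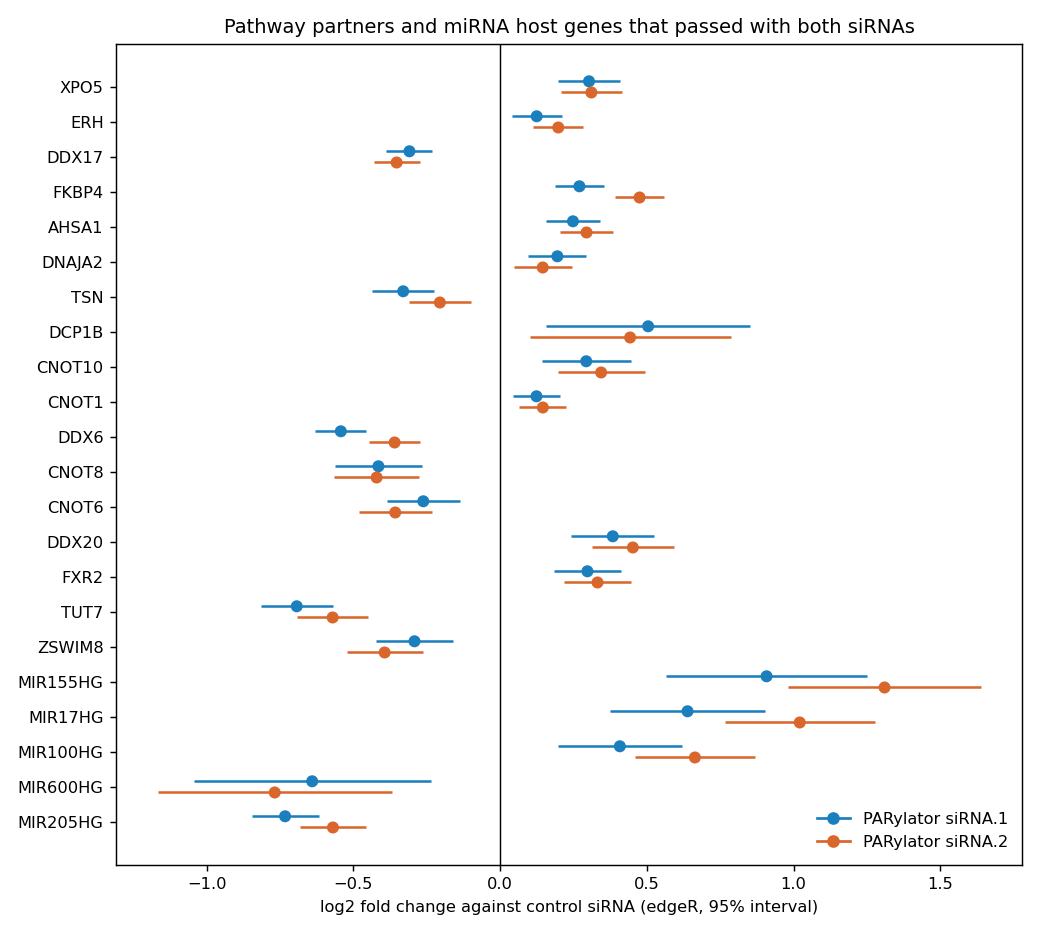
Log2 fold change against control siRNA (horizontal axis, edgeR) with its 95% interval for the 22 pathway partners and miRNA host genes named by rule among those that passed with both siRNAs, siRNA.1 in blue and siRNA.2 in orange. MIR155HG and MIR17HG show the largest rises and TUT7, MIR205HG and MIR600HG the largest falls, all larger than any change among the 10 RNA interference genes.

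The substrates of DROSHA can be read in part from the host transcripts of miRNAs, although these poly(A) RNA libraries do not show the mature miRNAs. Of 75 host gene rows, 36 were tested, and 5 were higher and 2 lower with each siRNA, where 30.3% and 30.9% of all genes passed. With both siRNAs 4 host genes rose and 2 fell, against 11.1% of all genes higher and 10.2% lower. Genes at higher levels passed more often, and only 24 host rows reached 0.5 FPKM, so these shares are not matched for level. MIR17HG (chr13:91347820-91354579) had 2.14, 2.62 and 1.79 FPKM in control libraries, 3.74, 3.21 and 3.38 FPKM with siRNA.1 and 4.18, 4.58 and 4.58 FPKM with siRNA.2. MIR17HG rose by 0.64 (adjusted p = 1.87e-05, edgeR) and 1.02 (adjusted p = 1.04e-13) on the log2 scale. MIR155HG rose by 0.91 and 1.31 on the log2 scale (adjusted p = 2.01e-06 and 1.57e-13) and MIR100HG by 0.41 and 0.66 (adjusted p = 0.000849 and 2.93e-09). The siRNA.1 change of MIR100HG fell to 0.26 without siRNA.1 replicate 1 (adjusted p = 0.0931). MIR205HG, an abundant transcript of squamous cells at 31.11, 32.58 and 35.17 FPKM in control libraries, had 19.91, 19.72 and 21.0 FPKM with siRNA.1 and 23.81, 21.42 and 21.96 FPKM with siRNA.2 (log2 fold changes -0.73 and -0.57, adjusted p = 2.99e-34 and 9.4e-22). MIR600HG had -0.64 and -0.77 (adjusted p = 0.00826 and 0.000906), and its siRNA.1 change was lost without control replicate 3 (-0.57, adjusted p = 0.0566) or siRNA.1 replicate 1 (-0.54, adjusted p = 0.0589). A host transcript that is cut by DROSHA loses its hairpin, so its level is no measure of the miRNA.

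The mature miRNAs of the host genes with the clearest shifts are shown so that the seeds at stake can be read. RefSeq (GRCh38.p14) places the mature miRNAs of MIR17HG from chr13:91350618-91350640 for miR-17-5p to chr13:91351361-91351382 for miR-92a-3p. It places miR-155-5p at chr21:25573983-25574006 and miR-205-5p at chr1:209432166-209432187, all on the plus strand. In the GENCODE 44 annotation, those of MIR17HG and miR-155-5p fall in exons of their host genes. There miR-205-5p falls in an intron of MIR205HG. Capitals again mark bases 2 to 8.
hsa-miR-17-5p: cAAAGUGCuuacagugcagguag
hsa-miR-20a-5p: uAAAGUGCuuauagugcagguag
hsa-miR-18a-5p: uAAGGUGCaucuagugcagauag
hsa-miR-19a-3p: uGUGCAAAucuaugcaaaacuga
hsa-miR-19b-3p: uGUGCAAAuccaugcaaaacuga
hsa-miR-92a-3p: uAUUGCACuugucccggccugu
hsa-miR-155-5p: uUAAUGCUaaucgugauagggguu
hsa-miR-205-5p: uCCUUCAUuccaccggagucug
Within the MIR17HG transcript, miR-17-5p and miR-20a-5p share a seed, as do miR-19a-3p and miR-19b-3p, whereas miR-18a-5p and miR-92a-3p each have a seed of their own.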

How the data were processed

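RNA was TRIzol-extracted, poly(A)-selected and sequenced on an Illumina NovaSeq. The authors aligned the reads with STAR to GRCh38 and made gene counts with featureCounts; tool versions and the strand setting are not given in the sources used here. The deposited table holds raw counts and, beside them, FPKM per gene and library; FPKM of the 10 members recomputed from the deposited counts, exonic lengths and library totals differed by at most 0.00500. No per-sample column was left out (0).

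Genes whose mean reached 0.1 FPKM were tested with edgeR 4.0.16 (R 4.3.3; TMM, quasi-likelihood, all 3 groups in 1 fit, Benjamini-Hochberg over 21395 genes, threshold 0.05). Alternatives were DESeq2 1.42.0, RLE size factors, no filter, the compared groups alone, limma 3.58.1 on log2(FPKM + 0.1) or log2(FPKM + 1), a replicate block and leaving out each library. Shares of FPKM were compared by exact permutation (scipy 1.17.1). The scripts were tested on simulated data. Replicates of a group differed by more than sampling noise (chi-square per degree of freedom 2.73 to 4.40).

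All 10 members were named. Of each partner list, up to 3 genes per direction with the largest mean change were named among those past the threshold in the same direction with both siRNAs, and host genes likewise at 0.5 FPKM or more. No gene was named for likeness to a member, because no member passed with both siRNAs. Members and lists were chosen with earlier results of these data known. Gene positions are those deposited, all 10 found in GENCODE 44 and 9 with the same start and end. The siRNA sequences were not used here.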

Additional observations from a re-analysis of the deposited data

Results flagged for a closer look

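Of the 10 members, 4 differed between the PARylator siRNAs by the test of the difference itself (siRNA.2 against siRNA.1, edgeR). In that test 12.2% of all genes passed, and 19.9% of the genes at or above the level of the lowest member. The members were AGO4 by 0.33, TNRC6A by 0.18, DROSHA by 0.13 and DICER1 by -0.17 on the log2 scale. Each of these differences rests on libraries named with it above. Among the partners, FKBP4 differed by 0.20 (adjusted p = 2.71e-05) and DDX6 by 0.18 (adjusted p = 0.000768), with both siRNAs on the same side of control. Among the host genes, MIR17HG differed by 0.38 (adjusted p = 0.0193), which was lost without siRNA.1 replicates 2 or 3 or siRNA.2 replicates 2 or 3 (0.33 to 0.37, adjusted p = 0.0731 to 0.115). MIR205HG differed by 0.16 (adjusted p = 0.0464), which was lost with DESeq2 (adjusted p = 0.0754) and without any one of several libraries (0.13 to 0.17, adjusted p = 0.0515 to 0.226). These differences were not tested for any cause.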

How the results depend on the processing

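Of 480 refitted fold changes of the members, 412 kept their direction and side of the threshold, 29 no longer passed, 10 newly passed and 29 changed sign, and the cause was not tested. The falls of AGO3, AGO4 and TNRC6A with siRNA.1 and of TNRC6B with siRNA.2 did not pass in limma, while the changes of DICER1 and DROSHA with siRNA.2 passed under every alternative run. Between the siRNAs, limma called 1 member instead of 4 with either pseudocount, 9 and 8 pathway genes instead of 14 and 0 host genes instead of 5, and over all genes 1437 and 1414 instead of 2603; host genes called were 2 with DESeq2, 3 with RLE size factors and 3 without the filter. Leaving out 1 library gave 1 to 4 members and 2 to 5 host genes. The count of members that moved one way with both siRNAs was 1 in DESeq2 and 1 in limma with each pseudocount, and 0 to 1 when a library was left out.

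Changes of sign concerned values near 0. For AGO2 between the siRNAs the log2 value was -0.0032 with DESeq2, -0.0031 with RLE, -0.0096 and -0.0091 with limma, and -0.0489 to 0.0521 when a library was left out. For AGO4 with siRNA.2 it was -0.0092 with DESeq2, -0.0091 with RLE, -0.0056 in the compared groups alone and -0.0710 to 0.0727 with a library left out. For DGCR8 between the siRNAs it was -0.0095 with DESeq2, -0.0094 with RLE, -0.0023 in the compared groups alone, -0.017 and -0.015 with limma, and -0.0490 to 0.0361 with a library left out. Leaving out a library also spread DGCR8 over -0.0176 to 0.0711 for siRNA.1 and -0.0165 to 0.0727 for siRNA.2, TARBP2 between the siRNAs over -0.0446 to 0.0068 and TNRC6A with siRNA.2 over -0.0800 to 0.0225.

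Deviations of same-numbered libraries from their group mean correlated at -0.194 to 0.107 over 9 pairs, and those of different-numbered libraries at -0.0776 to 0.184 over 18 pairs. The values thus showed no sign of pairing by replicate number, but they cannot show whether the samples were paired by design. With the replicate number as a block, AGO4 with siRNA.2 was -0.0016, the DROSHA difference between the siRNAs did not pass (0.13, adjusted p = 0.0731), and 3 host genes were called between the siRNAs, and the MIR205HG difference between the siRNAs did not pass (0.16, adjusted p = 0.0712).

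Each group had 3 libraries, and each called difference between the siRNAs among the members was lost without at least 1 of them. LINC00885 and the lowest host genes rested on few counts.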
